A study of Mus musculus with 6 samples.

Results

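The BAF complexes are the mammalian SWI/SNF chromatin remodelers, assemblies that use ATP to slide or evict nucleosomes and so open or close regulatory DNA. Each complex carries a single ATPase, BRG1 (Smarca4) or BRM (Smarca2), on a core of SMARCB1 and the scaffold proteins SMARCC1 and SMARCC2, with further subunits drawn from small gene families. The makeup is known to differ by cell type. Complexes of ESCs are built around BRG1 and SMARCC1, and those of neural progenitors also take up BRM and SMARCC2 and use ACTL6A and PHF10. In postmitotic neurons ACTL6A is exchanged for ACTL6B, and PHF10 for proteins such as DPF1.

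The expression of 10 genes for BAF subunits was followed in ESCs and NPCs. They were chosen as a fixed list of array identifiers, namely Smarca4, Smarca2, Smarcb1, Smarcc1, Smarcc2, Arid1a, Actl6a, Actl6b, Phf10 and Dpf1, and all 10 had a row among the 17144 genes of the array table. RNA came from wild type V6.5 ESCs, a blastocyst-derived line on a 129SvJae/C57B6 F1 background grown in serum with LIF, and from wild type NPCs. The NPCs were differentiated in vitro from that same line and propagated in N3 medium with bFGF and EGF on polyornithine and laminin. Each cell type had 3 biological replicates with 1 Affymetrix array each, so that all 6 arrays go back to 1 ESC line, and neither group carries a transgene or deletion according to the labels. Values are log2 expression values after robust multi-array average (RMA) normalization by the authors. A gene was called where the adjusted p from limma (Benjamini-Hochberg over all 17144 genes) was under 0.05 and the difference of means was over 1.5-fold, which is 0.58 on the log2 scale.

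The labels could be checked at few marker genes, because most genes were named through a table of risers in NPCs. Pou5f1, the 1 of 8 listed pluripotency markers that could be named and a gene that defines pluripotent cells, stood at 12.44 ± 0.02 (SD, n = 3) in ESCs and 3.70 ± 0.11 in NPCs, matching the labels. The neural progenitor genes Nes, Fabp7, Vim and Slc1a3, 4 of 9 listed, were called higher in NPCs, a direction fixed largely by how they were named. Across all genes NPC replicate 3 (NP39) correlated at r = 0.978 to 0.979 with the other NPC arrays, which correlated with each other at 0.997. It lay more than 1 away from their mean on the log2 scale at 686 of the 17144 genes, so each result below is also given without it where that matters. Genes listed as markers of other neural cell types moved too. The paper reports that most NPCs kept with growth factors stained for NESTIN, SOX2 and PAX6. Whether the cultures held other cell types was not tested. The neuron genes Dcx and Syt1, the astrocyte genes S100b and Aldoc and the oligodendrocyte lineage genes Olig1 and Olig2 were called higher in NPCs. They are 2 of 10 neuron, 2 of 5 astrocyte and 2 of 7 oligodendrocyte lineage markers listed, could be named mainly because they rose, and their part in the values below was not tested. None of the 7 fibroblast markers could be named.

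Of the 10 BAF subunit genes, 4 were called higher in NPCs (Smarca2, Smarcc2, Phf10 and Dpf1), where 15.4% of all genes were. Lower in NPCs were 2 (Arid1a and Actl6a), where 18.7% of all genes were. In either direction this makes 6 of 10 against 34.1% of all genes. The remaining 4, Smarca4, Smarcb1, Smarcc1 and Actl6b, were not called. Calls were more frequent among the 8572 genes whose mean value lay above the median. There 4123 genes were called, and 5 of the 8 members tested. The lowest NPC array exceeded the highest ESC array at 4 of the 10 genes, against 26.1% of all genes, and the reverse held at another 4, against 32.6% of all genes. The median of the absolute log2 differences was 0.67 over the 10 genes and 0.33 over all genes. The 10 genes were chosen with earlier results of these data known. These contrasts with all genes therefore cannot show that BAF subunit genes changed more than others. In RNA from whole cultures, a smaller share of cells with a transcript and less of it per cell cannot be told apart.

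**Figure D1:**
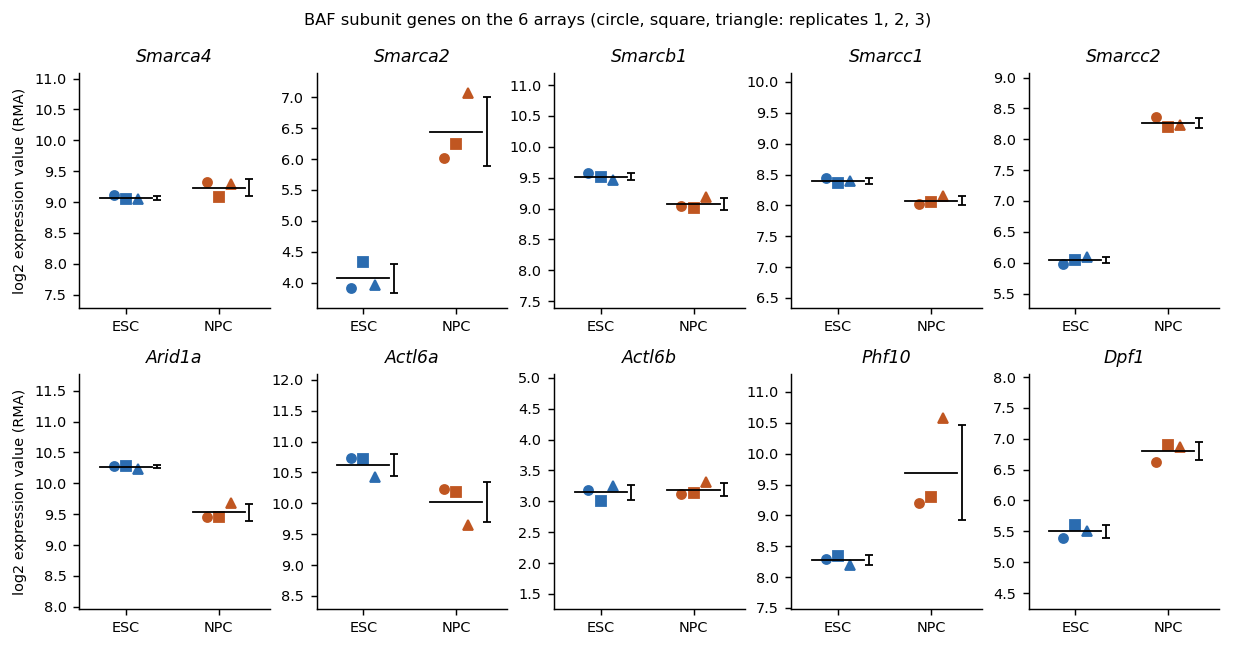
Log2 expression values (RMA) of the 10 BAF subunit genes in the 3 ESC arrays (blue) and the 3 NPC arrays (orange); lines are means, bars beside them are ±1 SD, and every panel spans the same log2 range. Smarca2, Smarcc2, Phf10 and Dpf1 lie higher in all NPC arrays, Smarcb1, Smarcc1, Arid1a and Actl6a lie lower in all of them, and Smarca4 and Actl6b overlap. Heights of different genes come from different probes and are not comparable.

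The ATPase and scaffold genes gave the clearest picture, because in each pair a single partner changed by several fold. The DNA just upstream of these 4 genes is shown to let the partners be compared, from the RefSeq promoter windows of mouse build GRCm38.p6, each on the plus strand, 5′ to 3′, ending before the first base of the annotated gene. Capitals mark CpG dinucleotides, the sites of DNA methylation in mammals. The stretch for Smarca2 is chr19:26604910-26605072, for Smarca4 chr9:21615919-21616105, for Smarcc2 chr10:128458986-128459181 and for Smarcc1 chr9:110131774-110132023.
Smarca2: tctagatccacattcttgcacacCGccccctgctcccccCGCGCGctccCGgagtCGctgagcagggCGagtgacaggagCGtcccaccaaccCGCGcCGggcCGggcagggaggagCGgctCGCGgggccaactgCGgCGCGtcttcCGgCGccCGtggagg
Smarca4: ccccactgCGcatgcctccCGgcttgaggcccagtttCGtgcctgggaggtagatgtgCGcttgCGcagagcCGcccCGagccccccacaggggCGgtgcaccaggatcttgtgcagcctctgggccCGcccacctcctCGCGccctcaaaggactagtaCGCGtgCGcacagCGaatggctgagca
Smarcc2: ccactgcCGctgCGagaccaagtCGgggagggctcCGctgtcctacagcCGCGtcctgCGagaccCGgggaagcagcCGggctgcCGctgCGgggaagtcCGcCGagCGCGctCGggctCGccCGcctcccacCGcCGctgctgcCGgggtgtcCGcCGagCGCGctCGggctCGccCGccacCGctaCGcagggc
Smarcc1: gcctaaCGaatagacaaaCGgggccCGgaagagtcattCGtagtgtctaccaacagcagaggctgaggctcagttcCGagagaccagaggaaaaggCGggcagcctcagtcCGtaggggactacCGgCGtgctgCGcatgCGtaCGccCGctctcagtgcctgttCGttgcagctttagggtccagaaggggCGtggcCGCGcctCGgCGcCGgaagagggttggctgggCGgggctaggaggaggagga

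Smarca2 and Smarcc2, the partners that rose, hold 21 CpGs in 163 bases and 30 in 196. Smarca4 and Smarcc1 hold 15 in 187 and 21 in 250. The stretches differ in length, and in the full windows of 300 bases the ATPase pair ran the other way, with 29 CpGs for Smarca2 and 33 for Smarca4, against 48 for Smarcc2 and 33 for Smarcc1. The 10 genes have 11 windows of 300 bases in the table, 250 before and 50 after a start site, with 2 for Arid1a. The windows contain between 21 and 62 CpGs, each more than the median of 13 over the 21263 windows of protein-coding genes. Phf10 had the most and Actl6a the fewest. The letters ATTGT, a form of the core of SOX recognition sites, occur on either strand in 1 of the 11 windows, that of Actl6b. They are in 27.7% of the windows of protein-coding genes. The SOX2 motif reported in the paper, CTTTGTT, holds TTTGT instead, which was not searched, so windows without ATTGT may still hold SOX2-type letters. The octamer ATGCAAAT recognized by POU factors, searched on both strands, is in none of the 11 and in 1.66% of the coding windows. At such a share few or none would be found among 11 windows. The 11 windows are 60.7 to 87% G and C, against a median of 56.3% in the coding windows. The letter counts were not adjusted for this. These counts describe letters in short windows and say nothing of binding.

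Smarca2 (ENSMUSG00000024921_at) encodes BRM, the alternative ATPase. Its log2 values were 3.91, 4.34 and 3.96 in ESC replicates 1, 2 and 3, and 6.02, 6.24 and 7.07 in NPC replicates 1, 2 and 3. Every NPC array was above every ESC array, and NPC replicate 3 stood apart as the highest. The difference of means was 2.38 (standard error 0.27, adjusted p = 0.000289, limma), or 5.19-fold. Without NPC replicate 3 it was 2.06 with a standard error of 0.14, less than the 2.24 of Smarcc2 without that array, and that array alone was 3.01 above the ESC mean. Smarca2 was thus higher in NPCs by 4.18-fold in replicates 1 and 2 together and by 8.03-fold in replicate 3. The ESC values began at the 22.9th percentile of an array, and with no detection call it is not known whether they lay above background, so the folds describe the array values only.

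Smarca4 (ENSMUSG00000032187_at) encodes BRG1, the ATPase that ESCs depend on for self-renewal. It read 9.11, 9.05 and 9.04 in ESCs and 9.33, 9.08 and 9.29 in NPCs. NPC replicate 2 fell within the range of the ESC arrays while the other 2 NPC arrays were slightly above it. The difference of 0.17 (standard error 0.09) was not called (adjusted p = 0.177, limma), and its 95% interval ran from -0.05 to 0.39. In linear terms the interval reaches from 0.967-fold to 1.31-fold, which leaves out a change of 1.5-fold either way on this scale but not a small rise. With median centring the difference was 0.32 (adjusted p = 0.0206, limma), past the p threshold and still within 1.5-fold.

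Smarcc2 (ENSMUSG00000025369_at) encodes the scaffold protein also called BAF170. Its log2 values of 5.99, 6.05 and 6.09 in ESCs rose to 8.35, 8.20 and 8.23 in NPCs. The NPC arrays lay close together, and replicate 3 was not apart from the rest. The difference was 2.22 (standard error 0.08, adjusted p = 1.13e-06, limma), a 4.67-fold rise, and it was the most precise of the 4 rises. The values of Smarcc1 (ENSMUSG00000032481_at), which encodes the related scaffold BAF155, were 8.45, 8.36 and 8.40 in ESCs and 8.03, 8.05 and 8.15 in NPCs. All NPC arrays were below all ESC arrays, but by little. Its difference of -0.32 (standard error 0.08, adjusted p = 0.0114, limma) passed the p threshold and not the fold threshold, since ESCs were 1.25-fold higher. The p threshold was missed with median centring (adjusted p = 0.116, limma) and without ESC replicate 1 (adjusted p = 0.0545, limma).

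**Figure D2:**
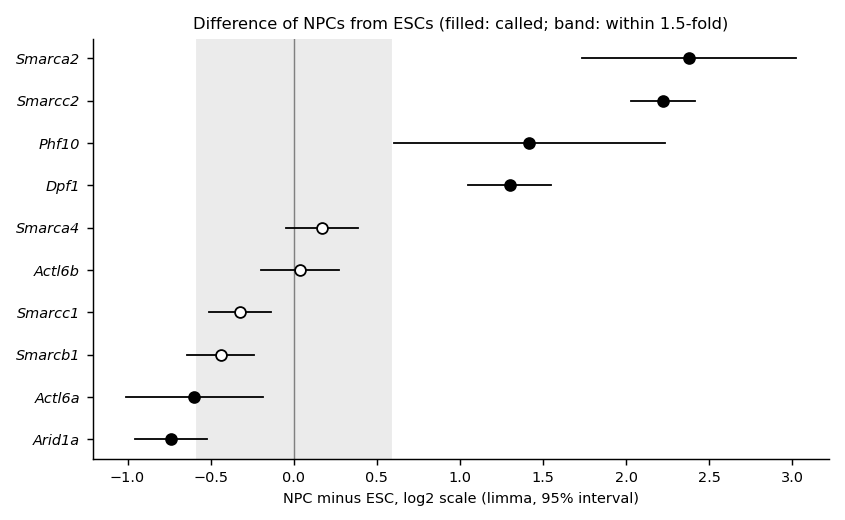
Difference of the NPC mean from the ESC mean on the log2 scale for each BAF subunit gene, with the 95% interval from limma; filled circles are called genes and the grey band covers changes within 1.5-fold. Smarca2 (2.38) and Smarcc2 (2.22) have the largest differences, though the interval of Phf10 overlaps those of both. The intervals of Phf10 and Smarca2 are the widest, and the intervals of Actl6a and Arid1a reach into the band.

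Smarcb1 and Arid1a have no partner among the 10 genes. Smarcb1 (ENSMUSG00000000902_at), the core subunit known as SNF5 and lost in rhabdoid tumors, had log2 values of 9.57, 9.51 and 9.46 in ESCs against 9.04, 9.01 and 9.18 in NPCs. The groups were separate and the shift was small, 1.36-fold lower in NPCs. At -0.44 (standard error 0.08, adjusted p = 0.00389, limma) it was past the p threshold but within 1.5-fold. Arid1a (ENSMUSG00000007880_at) encodes BAF250A, the large DNA-binding subunit that defines the canonical BAF form. It read 10.28, 10.28 and 10.24 in ESCs and 9.45, 9.45 and 9.68 in NPCs, and fell by 0.74 (standard error 0.09, adjusted p = 0.000438, limma), or 1.67-fold. The SD of the ESC arrays was 0.03, and NPC replicate 3 was the nearest to them. With each array centred on its median the difference was -0.58, a hair inside the fold threshold, and Arid1a was not called.

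Actl6a and Actl6b encode the actin-related subunits, BAF53A of dividing cells and BAF53B of neurons. Actl6a (ENSMUSG00000027671_at) had log2 values of 10.73, 10.71 and 10.42 in ESCs and 10.23, 10.19 and 9.65 in NPCs. The groups did not overlap, although ESC replicate 3 and NPC replicate 1 were close, and NPC replicate 3 was the lowest array. It fell by 0.60 (standard error 0.17, adjusted p = 0.0248, limma), or 1.51-fold, at the edge of the fold threshold. The call was lost without NPC replicate 3 (difference -0.41), without ESC replicate 1 (-0.54), without ESC replicate 2 (-0.55) with both other scalings of the arrays and with separate variances and no moderation (adjusted p = 0.133, Benjamini-Hochberg). Its direction was the same in all of these.

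Actl6b (ENSMUSG00000029712_at) showed no such movement. It read 3.18, 3.01 and 3.25 in ESCs and 3.12, 3.14 and 3.31 in NPCs, and the groups overlapped, with ESC replicate 2 the lowest array and NPC replicate 3 the highest. The difference was 0.04 (standard error 0.10, adjusted p = 0.784, limma), with a 95% interval from -0.19 to 0.27. On every array its value was among the lowest, between the 6.10th and the 11.7th percentile of all genes. RMA gives no detection call, so the values do not set whether the transcript was present, and a change beneath the range the probes can follow would not be seen. Of the named neuron genes, Dcx read 4.86, 5.06 and 3.77 and Syt1 6.93, 7.02 and 4.90 in the NPC arrays. Among the NPC arrays both were lowest in replicate 3, the array in which Actl6b was highest by 0.18 over the mean of the other NPC arrays. In that array Dcx was 1.21-fold and Syt1 2.30-fold over their ESC means of 3.49 and 3.70. In NPC replicates 1 and 2 together they were 2.78-fold and 9.71-fold over those means. Whether the cultures held neurons, and what part they had in these values, was not tested.

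Phf10 and Dpf1 encode related PHD finger proteins, BAF45A known from progenitors and BAF45B known from neurons. Phf10 (ENSMUSG00000023883_at) had log2 values of 8.30, 8.34 and 8.20 in ESCs and 9.20, 9.31 and 10.58 in NPCs. The groups were separate, and replicate 3 was 1.33 above the mean of replicates 1 and 2. No other BAF subunit gene had that array more than 1 away. The difference was 1.42 (standard error 0.34, adjusted p = 0.0115, limma), or 2.67-fold. Without NPC replicate 3 it was 0.97 with a standard error of 0.09, so the rise was 1.96-fold in replicates 1 and 2 and 4.93-fold in replicate 3. With separate variances and no moderation the adjusted p was 0.163, and the gene was not called.

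Dpf1 (ENSMUSG00000030584_at) read 5.39, 5.61 and 5.50 in ESCs and 6.63, 6.90 and 6.87 in NPCs. All NPC arrays were higher than the ESC arrays, and replicate 1 was the lowest of them, 0.27 under replicate 2, the widest gap between those arrays among the 10 genes. The difference of 1.30 (standard error 0.11, adjusted p = 5.29e-05, limma) is 2.46-fold. Dpf1 and Phf10 thus both rose between ESCs and NPCs, while of the subunits known from neurons Actl6b was not called and Dpf1 was.

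The change of one partner against the other was followed within each array, as the log2 value of the first gene minus that of the second, in 4 pairs. Because different probes measure the 2 genes, only the shift of this quantity between cell types can be read, not its level. Smarcc2 minus Smarcc1 was -2.47, -2.31 and -2.31 in ESCs and 0.32, 0.15 and 0.08 in NPCs, a shift of 2.54 toward Smarcc2. Smarca2 minus Smarca4 was -5.20, -4.71 and -5.08 in ESCs and -3.31, -2.84 and -2.22 in NPCs, a shift of 2.21 toward Smarca2. Both shifts were larger than the SDs among arrays, which were at most 0.13 in the scaffold pair and 0.55 in the ATPase pair. Without NPC replicate 3 the shift was 2.60 in the scaffold pair and 1.92 in the ATPase pair.

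The other 2 pairs behaved differently. Actl6b minus Actl6a shifted by 0.64, with only 0.05 between the nearest ESC and NPC arrays, and by 0.39 without NPC replicate 3. Since Actl6b was not shown to be above background, this shift mostly restates the difference of Actl6a and is no measure of an exchange. Dpf1 minus Phf10 was -2.90, -2.73 and -2.70 in ESCs and -2.57, -2.41 and -3.71 in NPCs. Its shift of -0.12 was within the spread, and NPC replicate 3 lay opposite to the other NPC arrays, so that without it the shift was 0.29. In an exact two-sided permutation test the ATPase, scaffold and actin-related pairs each gave p = 0.1, the smallest that 3 arrays against 3 allow (adjusted over the 4 pairs, 0.133), and the PHD finger pair gave p = 1.

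**Figure D3:**
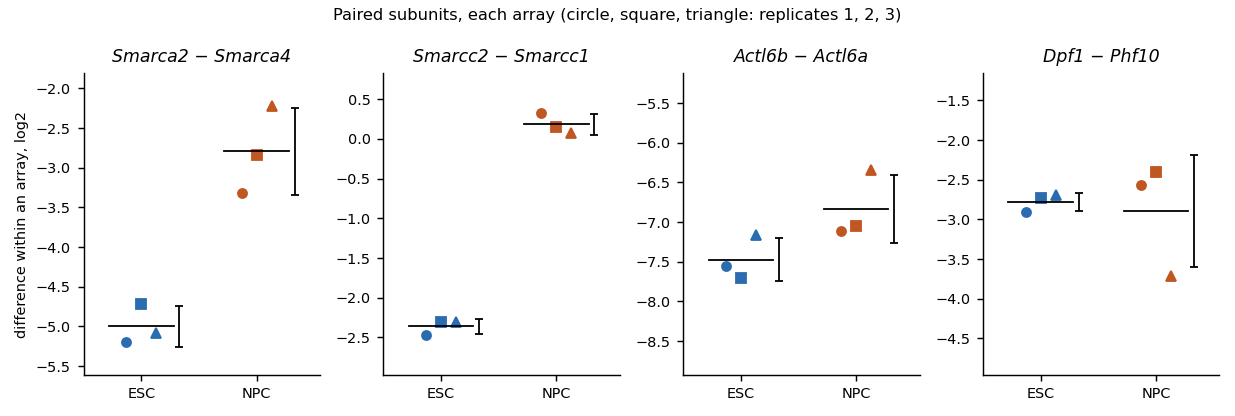
Log2 value of one subunit gene minus that of its partner within each array, for the 3 ESC arrays (blue) and 3 NPC arrays (orange), with the mean and ±1 SD; all panels span the same log2 range. The scaffold pair shifts by 2.54 and the ATPase pair by 2.21, the actin-related pair by 0.64, and in the PHD finger pair NPC replicate 3 (triangle) falls below all other arrays.

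Among the NPC arrays the 10 genes fell into those that replicate 3 set apart and those it did not. Replicate 3 was the highest NPC array at 6 of the 10 and the lowest at 1, Actl6a. Its distance from the mean of replicates 1 and 2 was 1.33 in Phf10, 0.94 in Smarca2 and -0.56 in Actl6a, and at most 0.23 in size in the other 7. Replicates 1 and 2 differed from each other by at most 0.27 at any of the 10 genes. The median distance of replicate 3 was 0.17 over the 10 genes and 0.17 over all genes. The named markers lay on both sides in that array. Slc1a3, S100b, Fabp7, Olig2 and Aldoc were 1.10, 0.80, 0.72, 0.65 and 0.50 above the mean of replicates 1 and 2, while Syt1, Dcx, Olig1, Vim and Nes were at -2.08, -1.20, -0.22, -0.18 and -0.07 from it. Their part in the values of Phf10 and Smarca2 was not tested.

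**Figure D4:**
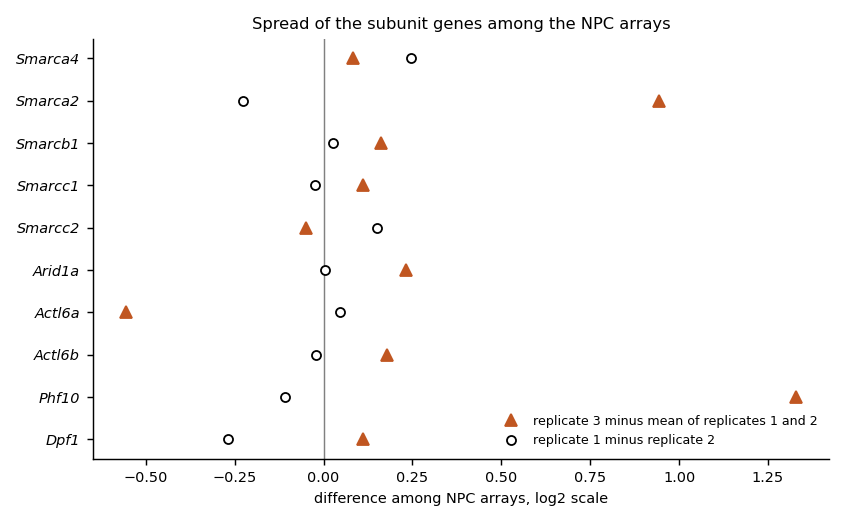
Distance of NPC replicate 3 from the mean of NPC replicates 1 and 2 (triangles) and of replicate 1 from replicate 2 (open circles), on the log2 scale, for each BAF subunit gene. Phf10 at 1.33 and Smarca2 at 0.94 are well to the right, Actl6a at -0.56 is to the left, and all open circles lie within 0.27 of zero.

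Other members of the BAF and PBAF complexes could be followed only in part. Of a list of 21 further subunit genes 2 could be named, both through a table of genes that rose in NPCs, so their direction was fixed by how they were named. Smarcd3, which encodes BAF60C, a subunit best known from heart and muscle, read 6.27, 6.14 and 6.22 in ESCs and 8.61, 8.68 and 8.65 in NPCs. The rise was 2.43 on the log2 scale with a standard error of 0.08 (adjusted p = 6.34e-07, limma). Smarce1, which encodes the HMG-box subunit BAF57, read 7.36, 7.23 and 7.04 in ESCs and 9.32, 9.21 and 9.27 in NPCs, and rose by 2.06 with a standard error of 0.10 (adjusted p = 4.77e-06, limma). In both genes the groups were far apart and NPC replicate 3 lay between the other NPC arrays. The other 19 were not analysed here.

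The calls of Actl6a and Arid1a, whose differences lay near the fold threshold, were lost with median centring and those of the 4 rises were not. Arid1a then failed on fold alone (adjusted p = 0.00152, limma), and Actl6a failed on both thresholds (adjusted p = 0.0687, limma). As deposited, the median log2 difference across the table was -0.036, and centring every array on its median made it 0.12, so that the centring moves every gene up in NPCs by the same amount. Over all genes the calls went from 2638 higher and 3213 lower in NPCs to 3302 higher and 2642 lower. After it, Smarca2, Smarcc2, Phf10 and Dpf1 had differences of 2.53, 2.38, 1.57 and 1.45 and none of the 10 genes was called lower. Smarcb1, Smarcc1, Arid1a and Actl6a still lay below zero, at -0.29, -0.17, -0.58 and -0.44.

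**Figure D5:**
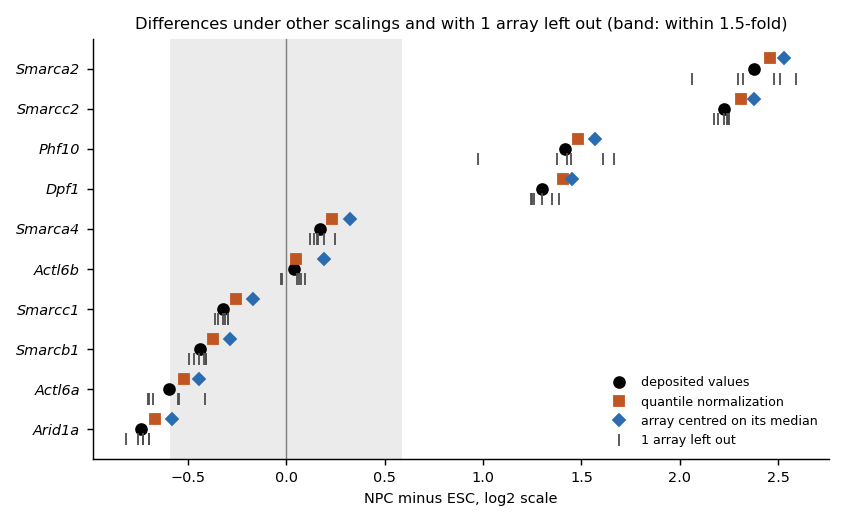
NPC mean minus ESC mean (log2) of each BAF subunit gene with the deposited values (black circles), quantile normalization (orange squares), median centring (blue diamonds) and 1 array left out at a time (ticks); the band covers changes within 1.5-fold. The 4 rises stay right of the band in every case, while Actl6a enters it and Arid1a reaches its edge.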

How the data were processed

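Total RNA of 3 ESC and 3 NPC samples was labelled with biotin and hybridized to Affymetrix mouse expression arrays. The authors deposited log2 values made by RMA, 1 per Ensembl gene through the BrainCDF probe annotation, of which the sources used here give neither version nor build. Of 17208 rows, 64 control probe sets were left out and no filter was applied. Groups and replicate numbers came from the sample labels.

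NPCs were tested against ESCs by limma (version 3.58.1, R 4.3.3) with a linear model of cell type alone over the 6 arrays, empirical Bayes moderation and Benjamini-Hochberg adjustment. The moderated Welch test of the methods was rebuilt as an alternative, and both were tested on simulated data. Paired subunits were compared with an exact permutation test. Arrays carry no counts, so their number limits the precision. The 10 members, the lists and the tests were chosen with earlier results of these data known. All 10 members and any listed subunit that could be named are reported.

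The rows carry no gene names. Those of the members came with their identifiers, and 4 of the 10 were checked by the route used for other genes, which matched all 6 array values of a row, within 0.0001, to a row the study prints with a name. That table holds mainly risers. Sequences are from RefSeq (GRCm38.p6). The protein sequences were not used here. Figures were made with matplotlib 3.10.9.

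Alternatives were the rebuilt moderated Welch test, a Welch test without moderation, a mean-variance trend, robust variances, quantile normalization, a block for the replicate number, median centring, a filter at the median level, other fold thresholds and each array left out.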

Additional observations from a re-analysis of the deposited data

How the results depend on the processing

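The 4 rises (Smarca2, Smarcc2, Phf10, Dpf1) kept their direction under all 16 alternatives, and each was called wherever it was tested except Phf10 under the Welch test without moderation. Smarca2 and Actl6b were left out by the filter at the median level. The number of subunit genes called lower, 2 with the deposited values, was 1 with that Welch test and with quantile normalization (Actl6a lost in both), 0 with median centring and with a fold change over 2, and 4 without a fold threshold, where Smarcb1 and Smarcc1 joined. With each array left out it was between 1 and 2, the lost gene being Actl6a without ESC replicate 1, ESC replicate 2 or NPC replicate 3. Over all 17144 genes the number called lower, 3213 with the deposited values, was 2526 with the unmoderated Welch test and 2900 with quantile normalization. It was 2642 with median centring and 4661 without a fold threshold. With an array left out it was between 3131 and 3333. A fold change over 2 left 3592 calls of 5851 over all genes, with 1615 higher and 1977 lower. Of 158 values of single members under alternatives, 144 kept direction and call, 10 lost the call, 2 gained it and 2 changed sign: Actl6b was -0.028 without ESC replicate 2 and -0.020 without NPC replicate 3, and at most 0.093 with any array left out. Dpf1 minus Phf10 shifted by 0.29 without NPC replicate 3 and by -0.36 at the lowest, without NPC replicate 2, when another array was left out. With the replicate number as a block 6 members and 5867 genes were called. Deviations of same-numbered arrays correlated at 0.026, 0.011 and -0.006, so no pairing by number was seen. Whether such arrays shared a batch or a preparation is not known. The 3 arrays per cell type and the missing detection calls limit what can be said of Actl6b.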
